A study of Arabidopsis thaliana with 4 samples.

Results

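The genes described here are those of the Arabidopsis chloroplast genome, taken as every row of the deposited expression table whose identifier starts with ATCG. There were 133 such rows among 33602 genes. RNA came from guard cells sorted from 12-day-old seedlings, 2 libraries of wild type (WT) and 2 of fama-1 plants that carry FAMA-LGK under the FAMA promoter. FAMA is the transcription factor that completes guard cell differentiation, and FAMA-LGK is a version whose binding motif for the retinoblastoma-related protein RBR1 is altered. The submitters describe WT guard cells as fully differentiated and those of the second genotype as reprogrammed, and the series compares their transcripts. Both genotypes were grown to the same age and sorted in the same way, and the WT libraries carry neither the fama-1 mutation nor the transgene. Because the transgene is read from the FAMA promoter, the altered protein is made in late stages of the stomatal lineage. Whether samples of one genotype were grown separately is not stated, so each p-value reflects the spread between libraries, part or all of which may be technical.

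A chloroplast keeps a small genome of its own in many copies. It encodes core subunits of both photosystems, the cytochrome b6f complex, the ATP synthase, a complex that resembles the respiratory NADH dehydrogenase (NDH) and the large subunit of Rubisco, together with ribosomal RNAs, transfer RNAs, some ribosomal proteins and a bacterial-type RNA polymerase. That polymerase reads most photosynthesis genes and works with sigma factors made in the nucleus, while phage-type polymerases, also made in the nucleus, read the rpoB operon and a few housekeeping genes. Most chloroplast genes lie in operons, and one stretch of the genome is present as an inverted repeat, so that genes in it, the ribosomal RNA genes among them, occur in a pair of copies. Guard cells are known to hold fewer and smaller chloroplasts than mesophyll cells.

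The table gives identifiers without names. Each TPM value (a read count divided by gene length and set to one total per library) is a whole number of reads at the right gene length, so the length behind each row could be found and matched to the annotated lengths of chloroplast genes. This gave 1 symbol for 86 of the 133 rows and a class for 116. Of the rows, 84 encode proteins, 36 are transfer RNAs, 8 are ribosomal RNAs, 3 were not assigned and 2 could be a short coding gene or a transfer RNA. Genes of equal length could not be separated by length, and the order of identifiers was not used for names. In particular, psbA and psbD, the genes of the photosystem II core proteins D1 and D2, have the same length and share ATCG00020 and ATCG00270. By identifier, ATCG00270 comes directly before psbC (ATCG00280), the operon partner of psbD.

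The 4 libraries held an approximate 17449427 to 20080207 reads, of which 4378604 to 4677699 fell on chloroplast genes. Markers listed for guard cells summed to 17971 and 13859 TPM in the WT libraries against 2909 and 2534 in the FAMA-LGK libraries, with 7 of 10 called lower and 1 higher, beside 6.14% and 6.45% of all genes tested (limma, adjusted p under 0.05). Most of each sum was TGG1, at 16420 and 12487 TPM in the WT libraries against 2652 and 2313 in the FAMA-LGK libraries. The marker called higher was MYB60 (log2 fold change 1.78), and FAMA itself (0.40) was not called. Nuclear photosynthesis genes that also mark mesophyll summed to 781.5 and 881.9 TPM in the WT libraries against 580.0 and 662.2 in the FAMA-LGK libraries, with 1 of 17 called lower, a share near the 6.14% of all genes. Epidermis markers summed to 115.8 and 81.8 TPM in the WT libraries against 359.7 and 316.2 in the FAMA-LGK libraries, with 4 of 6 called higher, beside 6.45% of all genes. No marker of the 3 lists was at 0 in all libraries. Their part in the results below was not tested. In pooled cells, fewer cells of a type and less RNA per cell cannot be told apart.

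Chloroplast transcripts made up 22.8% and 20.7% of all TPM in WT (replicates 1 and 2), against 23.9% and 24.4% in FAMA-LGK (replicates 1 and 2). Both FAMA-LGK libraries lay above both WT libraries, at a mean of 24.1% ± 0.363 against 21.8% ± 1.47 (SD, n = 2 each). The exact two-sided permutation test gave p = 0.33, the smallest value that 2 samples against 2 allow. As a share of estimated reads, the 133 genes held 24.5% and 23.3% in the WT libraries against 25.7% and 25.3% in the FAMA-LGK libraries.

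Most of this signal was ribosomal RNA. The 8 chloroplast ribosomal RNA rows held 69.6% and 70.6% of chloroplast TPM in the WT libraries against 71.5% and 68.0% in the FAMA-LGK libraries, so that the genotypes overlapped. Protein-coding rows held 26.8% and 26.0% in the WT libraries against 25.0% and 28.2% in the FAMA-LGK libraries, again with overlap. Protein-coding chloroplast genes were at 6.12% and 5.40% of all TPM in the WT libraries against 5.97% and 6.87% in the FAMA-LGK libraries, and here too the genotypes overlapped.

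**Figure D1:**
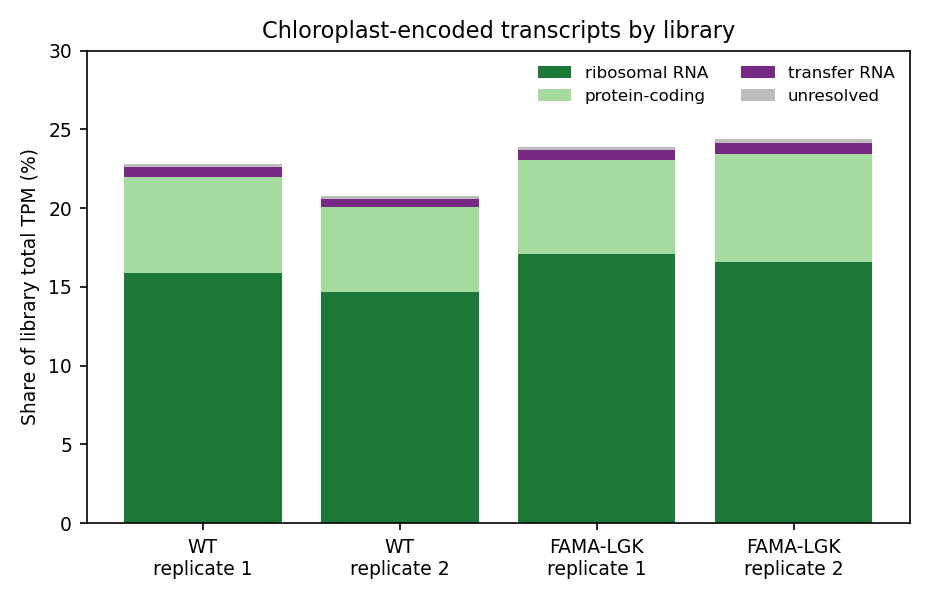
Share of each library's total TPM held by chloroplast genes, in percent, split into ribosomal RNA, protein-coding, transfer RNA and unresolved rows, 1 bar per library. Bars reach 22.8% and 20.7% in the WT libraries against 23.9% and 24.4% in the FAMA-LGK libraries, and the ribosomal RNA part is the largest in all 4.

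The denominator of these shares moved between libraries. Nuclear ribosomal RNA took 24.2% and 27.1% of TPM in the WT libraries, and the FAMA-LGK libraries lay on both sides of these at 33.0% and 22.3%. With it left out of the total, chloroplast genes held 30.1% and 28.5% in the WT libraries against 35.6% and 31.4% in the FAMA-LGK libraries. Protein-coding chloroplast genes against the sum of themselves and nuclear genes other than ribosomal RNA came to 11.3% and 10.2% in the WT libraries against 13.8% and 12.8% in the FAMA-LGK libraries, without overlap (exact permutation p = 0.33). Transcripts of the mitochondrial genome, the other organelle, held 4.99% and 4.57% of TPM in the WT libraries against 5.95% and 6.46% in the FAMA-LGK libraries, also without overlap. Chloroplast protein-coding TPM per mitochondrial TPM was 1.23 and 1.18 in the WT libraries against 1.00 and 1.06 in the FAMA-LGK libraries.

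The ribosomal RNAs, which are cut from one precursor, were recovered at very unequal levels per length. The copies of rrn23S, the large-subunit RNA, summed to 119392 and 112210 TPM in the WT libraries against 128047 and 119487 in the FAMA-LGK libraries, which is 52.3%, 54.1%, 53.6% and 49.0% of chloroplast TPM. The small-subunit RNA rrn16S summed to 13867 and 16264 TPM in the WT libraries against 18120 and 15973 in the FAMA-LGK libraries. For rrn4.5S the sums were 25526 and 17958 TPM in the WT libraries against 24433 and 30284 in the FAMA-LGK libraries. The lowest sums were those of rrn5S, at 97.4 and 77.5 TPM in the WT libraries against 48.4 and 82.96 in the FAMA-LGK libraries. Across the 4 libraries rrn23S stood 1565-fold above rrn5S by mean TPM, and the genotypes overlapped for 3 of the 4 RNAs by these sums. Which step of RNA recovery or library making sets these ratios was not tested.

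Among protein-coding rows the photosynthesis genes dominated. Photosystem II rows held 38.8% to 43.6% of chloroplast protein-coding TPM over the 4 libraries, ATP synthase rows 9.91% to 10.5%, photosystem I rows 8.26% to 9.62%, cytochrome b6f rows 2.95% to 3.44% and NDH rows 2.13% to 2.39%. Ribosomal protein rows held 12.2% to 14.4%, and the 4 subunits of the chloroplast RNA polymerase 0.928% to 1.34%. These class shares leave out 12 protein-coding rows whose length fits genes of several classes, which held 12.996% to 14.301%. One of them, ATCG00510 (the length of petG, psaI, rpl36 and a piece of rps12), held 2.66% to 3.05%. Its candidates belong to cytochrome b6f, photosystem I and the ribosomal proteins, and length does not tell which. Each class share with such a candidate may be too low. The 10 highest protein-coding rows held 47.6% to 50.3%.

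The highest protein-coding row was ATCG00270, psbA or psbD by length, at 6866 and 5144 TPM in the WT libraries against 4313 and 6175 in the FAMA-LGK libraries. The other row of that pair, ATCG00020, was at 3521 and 4783 TPM in the WT libraries against 4481 and 3996 in the FAMA-LGK libraries. Each row varied as much between replicates as between genotypes, and the order of the pair was the same in 3 libraries and the opposite in FAMA-LGK replicate 1. Next came psaB, a core protein of photosystem I, at 3899 and 3009 TPM in the WT libraries against 3544 and 4596 in the FAMA-LGK libraries. For psbE, a subunit of cytochrome b559 in photosystem II, values were 2952 and 3092 TPM in the WT libraries against 3969 and 3872 in the FAMA-LGK libraries. Both FAMA-LGK libraries were above both WT libraries for psbE, yet the difference did not pass the test (limma log2 fold change 0.38 with an SE of 0.31, adjusted p = 0.466).

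**Figure D2:**
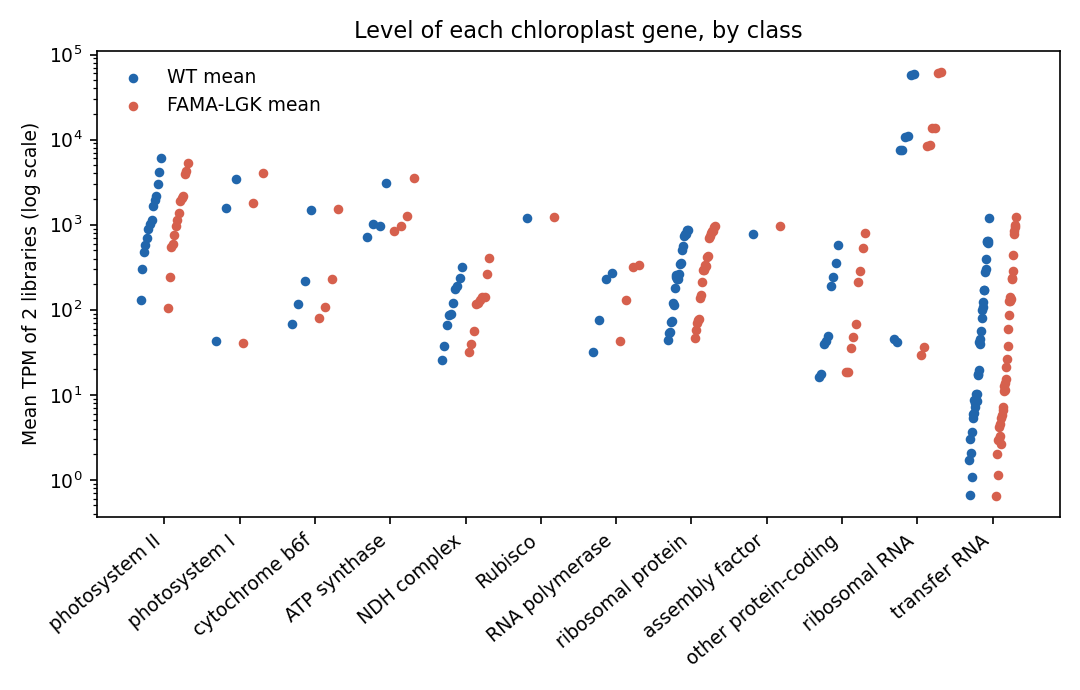
Mean TPM of the 2 libraries of each genotype for every chloroplast row of a known class, on a log axis, blue for WT and red for FAMA-LGK, with rows ordered by level within a class. Photosystem, ATP synthase and Rubisco genes lie mostly above NDH and polymerase genes, and transfer RNAs span from 1.18 to 1217 TPM as means over the 4 libraries.

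No other photosynthesis gene named here passed the test. The Rubisco large subunit gene rbcL was at 1236 and 1189 TPM in the WT libraries against 1150 and 1303 in the FAMA-LGK libraries (limma log2 fold change 0.01 with an SE of 0.25, adjusted p = 0.980). Its nuclear partners, the 4 small subunit genes, summed to 237.1 and 247.6 TPM in the WT libraries against 236.1 and 279.1 in the FAMA-LGK libraries, with 0 called by limma. Per small-subunit TPM, rbcL was at 5.21 and 4.80 in the WT libraries against 4.87 and 4.67 in the FAMA-LGK libraries. The antenna gene psbB was at 2310 and 2013 TPM in the WT libraries against 1993 and 2318 in the FAMA-LGK libraries, and psbC, for the other inner antenna protein, at 1981 and 1921 in the WT libraries against 2125 and 2023 in the FAMA-LGK libraries. The cytochrome b6 gene petB was at 1509 and 1456 TPM in the WT libraries against 1509 and 1575 in the FAMA-LGK libraries. For atpA, the alpha subunit of the ATP synthase, values were 3373 and 2802 TPM in the WT libraries against 3103 and 3908 in the FAMA-LGK libraries, and for atpB, the beta subunit, 1167 and 890.0 in the WT libraries against 918.8 and 1008 in the FAMA-LGK libraries. For rbcL, psbB, atpA and atpB the genotypes overlapped, while for psbC and petB both FAMA-LGK libraries were slightly above both WT libraries. The epsilon subunit gene atpE was at 726.6 and 703.1 TPM in the WT libraries against 777.2 and 925.8 in the FAMA-LGK libraries, so that atpB per atpE was 1.61 and 1.27 in the WT libraries against 1.18 and 1.09 in the FAMA-LGK libraries.

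Genes of one operon were not at one level. In the psaA, psaB and rps14 operon, psaB averaged 3762 TPM over the 4 libraries and rps14, a ribosomal protein gene, 196.2, a ratio of 19.2. Both photosystem I genes kept their proportion, since psaB per psaA was 2.24, 2.14, 2.17 and 2.32 in WT replicates 1 and 2 and FAMA-LGK replicates 1 and 2. In the NDH operon that starts with ndhH, the range was from 28.9 TPM for ndhH to 359.4 for ndhA. In the rpoB operon, rpoC1 averaged 273.6 TPM and rpoC2 37.4. The ratio of psbE to psbF, neighbours in their operon, was 3.11 and 2.89 in the WT libraries against 3.41 and 3.44 in the FAMA-LGK libraries.

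Between genotypes, limma called 1907 of 15143 genes tested, or 12.6%, of which 977 were higher (6.45%) and 930 lower (6.14%) in FAMA-LGK at an adjusted p under 0.05. All 133 chloroplast rows passed the minimum of a mean of 1 TPM. Of these, 0 were called higher and 2 lower, both transfer RNAs. At an unadjusted p under 0.05 there were 10 chloroplast rows, 7.52% of them, against 28.3% of all genes tested.

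The median log2 fold change of the 84 protein-coding rows was 0.19, and their range ran from -0.45 to 0.81, beside a median of 0.06 over all genes tested with a range of -6.62 to 4.59. A range widens with the number of genes. The sets also differ in level, with a median of the mean TPM of 300.3 against 6.91. The widths of the ranges are therefore not comparable. Of the 84, 73 had a fold change above 0, as did 99 of the 133 rows (74.4%) and 54.1% of all genes tested. Both FAMA-LGK libraries were above both WT libraries for 38 of the 84 and below for 4. Over all 133 rows these counts were 48 and 12, or 36.1% and 9.02%, against 31.6% and 25.7% of all genes tested. Leaving out WT replicate 1 gave a median of 0.33 for the 84, leaving out FAMA-LGK replicate 1 gave 0.34, and leaving out FAMA-LGK replicate 2 gave 0.12. Replicates differed by about as much: the median difference in log2(TPM + 1) over the protein-coding rows was -0.20 from WT replicate 1 to replicate 2 and 0.20 from FAMA-LGK replicate 1 to replicate 2.

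Rescaling within the set divides each library by a sum of these same rows, so a protein-coding median close to 0 is largely set by the method. With each library divided by its chloroplast protein-coding sum, the median of the 84 rows was 0.03, 51 were above 0 and 33 below, while the median of all genes moved from 0.06 to -0.07. Both FAMA-LGK libraries were then above both WT libraries for 22 rows and below for 11, against 25.7% and 33.6% of all genes. Divided by the sum of all 133 rows, the median of the 84 was 0.04 and that of all genes -0.06. In both rescaled fits 0 chloroplast rows were called higher and 2 lower, with 14 and 10 chloroplast rows at an unadjusted p under 0.05. Of all genes, 5.69% were called higher and 9.69% lower with the protein-coding sum, and 4.85% and 8.05% with the sum of all rows.

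Under the other settings tried, few chloroplast rows passed. Median-ratio scaling called 1 chloroplast row higher and 2 lower, against 6.74% and 8.28% of all genes. With nuclear ribosomal RNA removed it was 2 and 2, against 7.56% and 6.13%, and with the replicate number as a block also 2 and 2, against 9.77% and 9.01%. The block fit leaves few residual degrees of freedom, and its p-values may be too small. Without a filter it was 0 and 0, against 1.05% and 1.15%, and without a variance trend 0 and 1, against 4.55% and 3.93%. Without FAMA-LGK replicate 1 it was 2 and 4, against 5.94% and 4.83%, and without FAMA-LGK replicate 2 it was 0 and 3, against 4.29% and 7.43%. With all 4 libraries kept, at most 2 of the 133 rows were called higher and at most 2 lower under any of them.

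**Figure D3:**
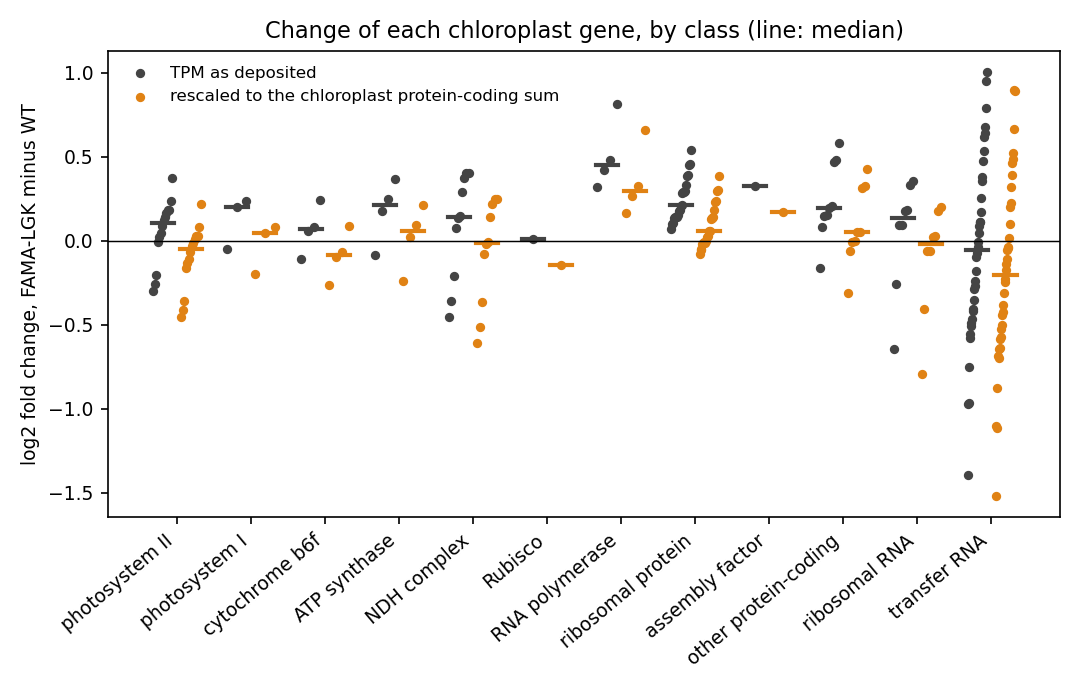
log2 fold change of FAMA-LGK over WT for each chloroplast row, on the log2(TPM + 1) scale, by class, black for TPM as deposited and orange after rescaling to the chloroplast protein-coding sum, with a line at each class median. The 4 polymerase genes lie above 0 on both scales. The photosystem II, NDH, cytochrome b6f, Rubisco (1 row) and ribosomal RNA medians move from above to below 0. The rescaling lowers most rows by a similar amount.

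Classes differed in where their members lay, without a call in any protein-coding class. The 36 rows of photosynthesis genes (photosystems, cytochrome b6f, ATP synthase, NDH and Rubisco) had a median log2 fold change of 0.13 as deposited, with 26 above 0, and -0.03 after rescaling to the protein-coding sum, with 15 above 0. The 26 rows of gene expression proteins (polymerase and ribosomal proteins) had a median of 0.29, all above 0, and 0.13 after rescaling, with 19 above 0. Some of these rows are inverted repeat copies of one gene and are not independent. With copies summed before the fit 22 rows remained, all above 0. Under median-ratio scaling the medians of the photosynthesis and gene expression rows were 0.05 and 0.21, with 22 and 25 rows above 0. Without WT replicate 2 the gene expression rows had a median of 0.14, with 18 above 0, and the photosynthesis rows 0.05. Without FAMA-LGK replicate 2 the medians were 0.15 and 0.04, and without WT replicate 1 that of the gene expression rows was 0.46. The gene expression rows summed to 9565 and 7116 TPM in the WT libraries against 9037 and 10742 in the FAMA-LGK libraries, so that WT replicate 1 lay above FAMA-LGK replicate 1. The difference between the classes was not tested.

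The RNA polymerase genes were the class with the highest median, 0.45 as deposited and 0.30 after rescaling to the protein-coding sum, and all 4 stayed above 0 under every scaling tried and without each library in turn. The size was less steady, since their median was 0.66 without WT replicate 1 and 0.25 without WT replicate 2. For rpoB, the beta subunit, values were 93.2 and 59.5 TPM in the WT libraries against 126.1 and 137.3 in the FAMA-LGK libraries. Both FAMA-LGK libraries lay above both WT libraries, and the WT libraries differed from each other by more than the FAMA-LGK libraries did. The log2 fold change was 0.81 (SE 0.24, limma adjusted p = 0.0581), just outside the threshold, and 0.66 after rescaling to the protein-coding sum (adjusted p = 0.0570). It passed under median-ratio scaling (adjusted p = 0.0453) and with nuclear ribosomal RNA removed (adjusted p = 0.0321), and was 0.49 (adjusted p = 0.390) without WT replicate 2.

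Its operon partners had smaller fold changes, and the difference between them and rpoB was not tested. For rpoC1, the beta prime subunit, values were 271.1 and 187.7 TPM in the WT libraries against 278.1 and 357.5 in the FAMA-LGK libraries (limma log2 fold change 0.48 with an SE of 0.25, adjusted p = 0.240). For rpoC2, the beta double prime subunit, they were 35.0 and 28.8 TPM in the WT libraries against 39.9 and 45.9 in the FAMA-LGK libraries (0.42, SE 0.22, adjusted p = 0.244). The alpha subunit gene rpoA, which lies in an operon of ribosomal protein genes, was at 320.6 and 225.4 TPM in the WT libraries against 295.4 and 383.2 in the FAMA-LGK libraries, with overlap (0.32, SE 0.25, adjusted p = 0.440). As a ratio within each library, which no scaling alters, rpoB per rpoC1 was 0.344 and 0.317 in the WT libraries against 0.453 and 0.384 in the FAMA-LGK libraries. Against psbB, rpoB stood at 0.0403 and 0.0296 in the WT libraries against 0.0632 and 0.0592 in the FAMA-LGK libraries.

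Genes known to be read by the nucleus-encoded polymerases alone, rpoB, rpoC1, rpoC2, accD and the pair of ycf2 rows, had a median of 0.31, and 0.16 after rescaling, with 6 and 5 of the 6 rows above 0. Without WT replicate 2 the median was 0.19, with 5 above 0. The acetyl-CoA carboxylase subunit gene accD was at 251.7 and 237.8 TPM in the WT libraries against 275.8 and 288.8 in the FAMA-LGK libraries (limma log2 fold change 0.21 with an SE of 0.20, adjusted p = 0.558). The copies of ycf2, a subunit of the protein import machinery, were each at 14.5 to 19.4 TPM in all libraries.

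**Figure D4:**
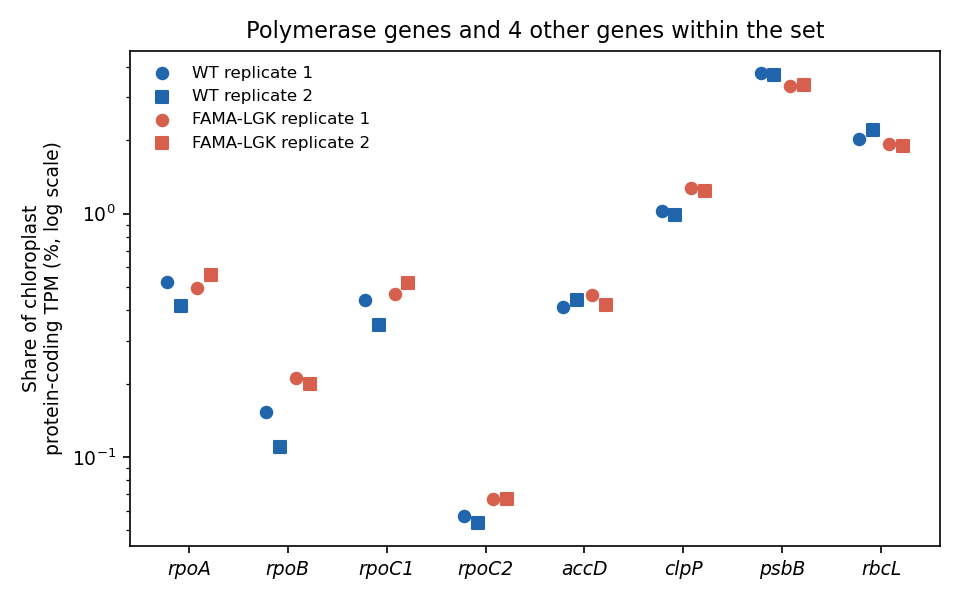
Share of chloroplast protein-coding TPM, in percent on a log axis, of the 4 polymerase genes and of accD, clpP, psbB and rbcL in each library, blue for WT and red for FAMA-LGK. Both FAMA-LGK points lie above both WT points for rpoB, rpoC1, rpoC2 and clpP, and below them for psbB and rbcL. For rpoA and accD the genotypes overlap.

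After rpoB, the highest protein-coding rows by fold change were ATCG00650, matK, rpl20 and rpoC1. ATCG00650 has the length of ndhE and of rps18, and by identifier it lies between the ribosomal protein genes rpl33 and rpl20. It was at 109.7 and 91.9 TPM in the WT libraries against 141.4 and 173.7 in the FAMA-LGK libraries (limma log2 fold change 0.64 with an SE of 0.21, adjusted p = 0.0833). The intron maturase gene matK was at 345.9 and 358.8 TPM in the WT libraries against 476.7 and 584.9 in the FAMA-LGK libraries (0.58, SE 0.22, adjusted p = 0.120). For rpl20, a protein of the large ribosomal subunit, values were 251.3 and 207.2 TPM in the WT libraries against 311.7 and 353.8 in the FAMA-LGK libraries (0.54, SE 0.22, adjusted p = 0.137). In all 3 the genotypes did not overlap, as deposited and after rescaling.

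Further housekeeping genes were placed as follows. The protease subunit gene clpP was at 627.4 and 531.4 TPM in the WT libraries against 762.3 and 850.0 in the FAMA-LGK libraries (limma log2 fold change 0.48, adjusted p = 0.214). The photosystem I assembly gene ycf3 was at 821.6 and 725.4 TPM in the WT libraries against 936.4 and 1006 in the FAMA-LGK libraries (0.33, adjusted p = 0.406). The longer of the 2 rows of ycf1, a protein of the import machinery, was at 59.7 and 38.9 TPM in the WT libraries against 64.4 and 69.9 in the FAMA-LGK libraries (0.47, adjusted p = 0.241). The envelope protein gene cemA (log2 fold change 0.15) and the cytochrome c synthesis gene ccsA (-0.16) were not called either, and ccsA was lower in both FAMA-LGK libraries.

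The lowest protein-coding rows by fold change were ndhK, ndhC, psbM, psbZ and ndhJ. The first 2 and ndhJ form one operon of the NDH complex, which takes part in cyclic electron flow around photosystem I. For ndhK values were 198.7 and 183.9 TPM in the WT libraries against 114.2 and 169.8 in the FAMA-LGK libraries (limma log2 fold change -0.45 with an SE of 0.24, adjusted p = 0.243). For ndhC they were 177.9 and 177.4 TPM in the WT libraries against 119.2 and 160.1 in the FAMA-LGK libraries (-0.36, SE 0.22, adjusted p = 0.318). Both genes were below WT in both FAMA-LGK libraries, while ndhJ overlapped between genotypes at 70.5 and 60.4 TPM in the WT libraries against 51.1 and 62.1 in the FAMA-LGK libraries (-0.21, adjusted p = 0.572).

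The other 7 NDH rows had fold changes above 0 as deposited. For ndhB, whose copies summed to 178.4 and 174.7 TPM in the WT libraries against 205.8 and 265.7 in the FAMA-LGK libraries, the log2 fold change was 0.40 in each row, and for ndhF, at 38.4 and 36.2 TPM in the WT libraries against 32.7 and 47.4 in the FAMA-LGK libraries, it was 0.08. The fold changes of ndhA, ndhH, ndhG and ndhI were 0.37, 0.29, 0.15 and 0.13. After rescaling to the protein-coding sum 4 of the 10 NDH rows were above 0 and 6 below. The small photosystem II subunits psbM and psbZ were at 140.9 and 116.2 TPM in WT against 106.9 and 101.1 in FAMA-LGK (-0.30, adjusted p = 0.386), and at 369.5 and 226.1 against 213.2 and 275.2 (-0.25, adjusted p = 0.588).

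Ribosomal protein genes, 22 rows, had a median log2 fold change of 0.21 and a range of 0.07 to 0.54. All 22 lay above 0 as deposited, 21 under median-ratio scaling and 15 after rescaling to the protein-coding sum, and 0 were called. With inverted repeat copies summed before the fit 18 rows remained, all above 0, with a median of 0.25. Over the 22 rows the median was 0.42 without WT replicate 1 and 0.11 without WT replicate 2 (14 above 0). It was 0.34 without FAMA-LGK replicate 1 and 0.14 without FAMA-LGK replicate 2 (18 above 0). The 2 rows of rpl2 summed to 740.6 and 648.3 TPM in the WT libraries against 822.4 and 868.2 in the FAMA-LGK libraries. The rps12 rows summed to 2096 and 1376 TPM in the WT libraries against 1704 and 2116 in the FAMA-LGK libraries, and the rps7 rows to 1923 and 1204 in the WT libraries against 1424 and 1946 in the FAMA-LGK libraries. In both the WT libraries differed from each other more than the genotype means did, and WT replicate 1 was close to FAMA-LGK replicate 2. For rps14 values were 180.7 and 180.2 TPM in the WT libraries against 248.3 and 175.7 in the FAMA-LGK libraries.

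For 10 genes both copies of the inverted repeat could be matched by name and length. Their values were nearly the same: the largest difference in any library between the copies of rrn23S was 2.23%, of rrn16S 0.832%, of rpl2 3.67% and of ndhB 3.68%. The largest of all was 34.6% for rrn5S, whose rows held 26 and 35 estimated reads in that library. Reads from identical copies cannot be told apart, so the rows are not independent. How such reads were placed is not given in the sources, and a sum over copies is the gene's level only if each was counted once. With the copies summed before the fit, the protein-coding median stayed at 0.19.

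**Figure D5:**
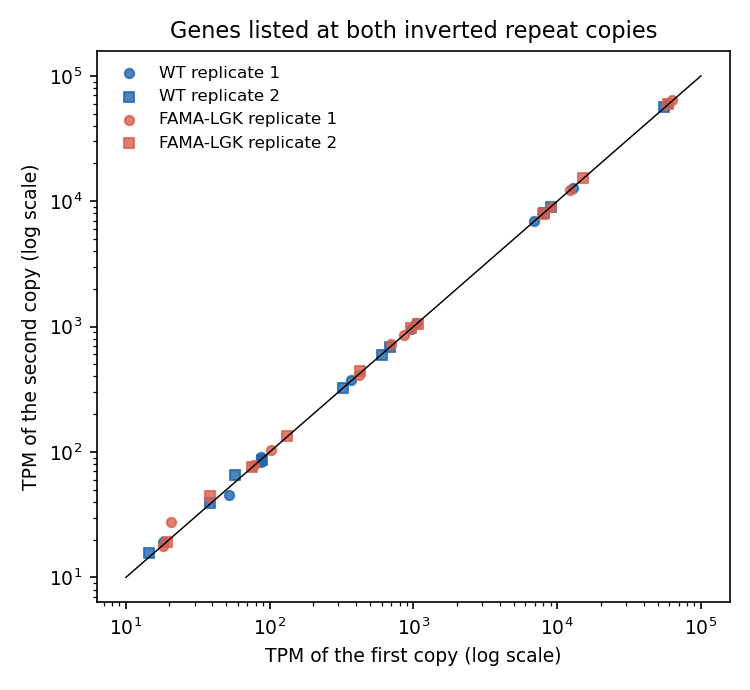
TPM of the first against the second copy of the 10 genes matched at both inverted repeat copies, on log axes, 1 point per gene and library, with a line where both are equal. Points lie on or near the line, and the widest gap, 34.6%, is that of rrn5S.

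The 36 transfer RNA rows had the widest spread, with fold changes from -1.39 to 1.01, a median of -0.06, 16 rows above 0 and 20 below. They are 71 to 92 bases long and 17 of them had under 10 estimated reads in some library. Both rows called belong here. ATCG00390 was at 45.2 and 38.6 TPM in the WT libraries against 19.7 and 22.3 in the FAMA-LGK libraries, from 35, 34, 15 and 17 estimated reads (limma log2 fold change -0.96 with an SE of 0.22, adjusted p = 0.0197). ATCG01220 was at 9.16 and 8.07 TPM in the WT libraries against 2.67 and 2.66 in the FAMA-LGK libraries, from 7, 7, 2 and 2 reads (-1.39, SE 0.30, adjusted p = 0.0151). Lengths leave 6 amino acids open for the first and 8 for the second. Neither was called without a filter on low values (adjusted p = 0.0687 and 0.0790), nor without WT replicate 1 (0.227 and 0.217) or WT replicate 2 (0.192 and 0.210). In these fits without a WT library limma called 0 genes of the whole table, with 2678 and 2367 genes and 8 and 5 chloroplast rows at an unadjusted p under 0.05. The adjusted p of ATCG00390 was 0.0511 without FAMA-LGK replicate 1 and 0.0717 without a variance trend. For ATCG01220, both FAMA-LGK libraries lay under the level that 3 reads give, 3.998 and 3.983 TPM. The row ATCG00910 has the same length and, like ATCG01220, lies between rps12 and rrn16S by identifier. Its values were 6.55 and 5.76 TPM in the WT libraries against 5.33 and 5.31 in the FAMA-LGK libraries, from 5, 5, 4 and 4 reads. If it is the other inverted repeat copy, reads of both rows cannot be told apart. Transfer RNA rows were not paired, so this was not tested. From reads summed over each genotype, the TPM ratio of FAMA-LGK to WT was 0.503 for ATCG00390 (95% exact interval 0.320 to 0.776) and 0.310 for ATCG01220 (0.0743 to 0.987), intervals that cover counting error only.

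Nuclear genes that serve chloroplast gene expression were read from the same fit, on lists of 35 genes of which 31 were tested. Of these, 1 was called higher, 0 lower and 30 were not called, so that the list held no larger share of calls than the 6.45% higher and 6.14% lower of all genes, and their median log2 fold change was 0.28. The called gene was CP29A, which binds and stabilises chloroplast transcripts, at 7.09 and 4.71 TPM in the WT libraries against 14.4 and 22.6 in the FAMA-LGK libraries (limma log2 fold change 1.49 with an SE of 0.31, adjusted p = 0.0130). Among the 6 sigma factors, SIG5 was the highest, at 23.3 and 20.1 TPM in the WT libraries against 15.1 and 18.6 in the FAMA-LGK libraries (-0.35, adjusted p = 0.371), and SIG4 had the largest fold change, at 1.17 and 0.664 TPM in the WT libraries against 3.001 and 2.920 in the FAMA-LGK libraries (1.06, adjusted p = 0.0989).

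The phage-type polymerase gene RPOTp was at 11.3 and 10.6 TPM in the WT libraries against 11.1 and 14.2 in the FAMA-LGK libraries (limma log2 fold change 0.19, adjusted p = 0.681). The other one, RPOTmp, lay lower in both FAMA-LGK libraries, at 2.63 and 2.54 TPM in the WT libraries against 1.58 and 1.25 (-0.57, adjusted p = 0.340). The 12 proteins that associate with the chloroplast polymerase summed to 22.7 and 17.4 TPM in the WT libraries against 36.5 and 33.7 in the FAMA-LGK libraries. Of the 9 that passed the minimum, 0 were called and the median log2 fold change was 0.78, with PAP5 at 2.14 and 1.42 TPM in the WT libraries against 4.12 and 5.88 in the FAMA-LGK libraries (1.11, adjusted p = 0.0713).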

How the data were processed

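Guard cell RNA of 2 WT and 2 FAMA-LGK samples was measured by RNA-seq from total RNA with low-input NuGEN kits. Per the labels, the authors deposited TPM values made from HTSeq counts; CASAVA 1.8.2, Bowtie2, HTSeq and TAIR10 are named in the submitters' processing notes. The sources used here give neither gene lengths nor strandedness nor how reads with several matches were handled. Members, lists and classes were chosen with earlier results of these data known.

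The TPM worth of 1 read at each length was read from low values. The smallest length giving whole reads in all 4 libraries (tolerance 0.005, largest deviation 1.0e-04) was found for all 133 rows. It was matched to chloroplast gene lengths in the TAIR10.1 annotation: 118 rows by annotated length, 8 by a multiple, 4 by another start codon and 3 not at all. Of 6 annotation notes that name a member, 5 give the same gene, and that of ATCG00430 (ndhK by length) reads photosystem II protein G. Read totals rest on such lengths for all genes, so they are approximate and cover counting error only. No coordinates or sequences are given, since the builds differ in name.

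log2(TPM + 1) was tested with limma 3.58.1 in R 4.3.3 (eBayes with trend, two-sided, prior of 7.73 degrees of freedom), Benjamini-Hochberg adjusted over the 15143 genes whose mean reached 1 TPM, threshold 0.05. Fold changes on this scale understate those of low genes. Shares were compared by exact permutation. Named genes were a set list of symbols, the 10 highest rows, called rows and the 5 highest and lowest protein-coding fold changes. Genes of that list without a row of their own (psbA, psbD, petD, atpH, ycf4, ndhD) were given as pairs or not at all. Rows outside this rule (psbF, rps7, ATCG00910 and further ndh genes) were chosen after their values were seen. Scripts were checked on simulated data. Other tools were matplotlib 3.10.9, scipy 1.17.1, pandas 2.3.3 and numpy 2.4.6 under Python 3.11.15.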

Additional observations from a re-analysis of the deposited data

How the results depend on the processing

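Numbers of calls over all genes depended on the settings: against 977 higher and 930 lower as reported, limma called 245 and 266 without a filter, 1479 higher with the replicate block, 595 lower without a variance trend and 1467 lower after rescaling to the chloroplast protein-coding sum (861 higher). Rescaled to the chloroplast sum it called 734 higher and 1219 lower. Leaving out 1 library gave 0 to 899 higher and 0 to 1125 lower, with 0 for either WT library (2678 and 2367 genes at an unadjusted p under 0.05); the lone library is assumed to vary like the other group. Chloroplast rows called higher, 0 as reported, were 1 under median-ratio scaling (rpoB), 2 with nuclear ribosomal RNA removed (rpoB and ATCG00650), 2 with the replicate block, and 0 to 2 without 1 library. Rows called lower, 2 as reported, were 0 without a filter, 1 without a variance trend and 0 to 4 without 1 library. The median of protein-coding rows ranged from 0.03 to 0.34 over all settings. The difference in chloroplast share, 2.35 percentage points as reported, was 4.22 without nuclear ribosomal RNA in the total, 0.66 for protein-coding rows alone and 1.31 to 3.38 without 1 library. The share of estimated reads (1.65 points) and the summed copies were chosen after seeing the data. Of 706 values of 51 named rows, 42 changed sign without a call, 8 lost a call, 5 gained one and 0 reversed with a call. The sample labels do not say whether same-numbered samples were paired. Deviations of same-numbered samples correlated at 0.08 over genes, 0.07 over chloroplast rows and -0.24 over protein-coding ones, which cannot settle it. The limma fit with the block gave rpoB an adjusted p of 0.0124. Its lowest adjusted p over all genes was 6.9e-139, against 7.6e-07 without the block. That fit leaves few residual degrees of freedom, and its p-values may be too small. Differences smaller than the spread between 2 libraries cannot be resolved here, and rows under 10 reads are limited by counting error. The causes of these changes were not tested.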
